A study of Homo sapiens with 16 samples.

Results

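The genes described here are 7 Src family tyrosine kinases (LYN, FYN, FGR, LCK, BLK, YES1 and SRC) and CSK, the kinase that restrains them. They were chosen by symbol, and all 8 were found among the 58051 gene identifiers of the deposited table. Src family kinases carry a myristate on their N-terminal glycine, which N-myristoyltransferases (NMTs) attach and which holds the kinase at the inner face of the plasma membrane. In B cells LYN, FYN and BLK phosphorylate the tails of CD79A and CD79B beneath the B cell receptor, and SYK and BTK act next. CSK, a cytosolic kinase that is not itself myristoylated and is not a Src family member, phosphorylates their inhibitory C-terminal tyrosine. The data are mRNA levels, so neither the lipid nor the activity of these kinases was measured.

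RNA was sequenced from P493-6 cells, an immortalised line of human B cells whose MYC transgene is repressed by doxycycline and in which oestrogen activates the Epstein-Barr virus factor EBNA2. The high MYC groups were kept in DMEM with serum, and the medium MYC groups were also given doxycycline at 0.1 µg/mL together with β-estradiol at 1 µM from 24 h before treatment. At each MYC level one group then received 100 nM IMP1088, an inhibitor of both human NMTs, and the other received DMSO, for 24 h. Each of the 4 groups had 4 libraries, all from this single line, and the study addresses how NMT inhibition acts when MYC differs. Because MYC level, doxycycline and estradiol always changed together, their effects cannot be told apart here. Nothing in the labels says that replicates were separate cultures, so p-values measure the spread between these libraries, which may be technical.

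The values are normalized counts, that is, whole reads divided by a size factor of the library. They are relative to the other reads of a library, so levels per cell cannot be read from them. Libraries held from 8755296 to 13858534 reads. MYC itself had 31649 ± 2129.7 normalized counts (SD, n = 4) in high MYC DMSO libraries and 959 ± 48.7 (SD, n = 4) in medium MYC DMSO libraries, in the direction the labels give. With IMP1088 MYC was higher, at 47542 ± 505 and 1382 ± 51.2 (SD, n = 4). NMT1, a target of the inhibitor, changed by -0.05 on the log2 scale with IMP1088 at high MYC and by -0.06 at medium MYC (limma adjusted p 0.321 and 0.247). All 7 B cell markers examined were present, with summed normalized counts between 33847 and 65497 per library. Of 8 T cell markers, CD3D, CD247, CD5 and CD8A had at most 3 reads in every library, and CD3E, CD3G and TRAC carried most of the summed level. The myeloid markers MPO, S100A8 and S100A9 also had at most 3 reads in every library. These are bulk libraries, in which a lower level in fewer cells and a lower level in every cell cannot be told apart.

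Levels are compared between genes per kb of exon. In high MYC DMSO libraries CSK had the highest level of the 8, at 452 ± 18.2 normalized counts per kb (SD, n = 4). LYN followed at 308 ± 10.1 and FGR at 281 ± 8.29 (SD, n = 4), per kb. The other Src kinases were far lower on this scale: BLK at 47.3 ± 2.31, FYN at 32.2 ± 1.57, LCK at 31.4 ± 2.77, YES1 at 26.5 ± 4.75 and SRC at 10.4 ± 1.58 (SD, n = 4). FYN, LCK and YES1 did not separate beyond their spread. LYN and FGR were thus the leading Src kinase mRNAs among the 8 at high MYC, and SRC was the lowest. In medium MYC DMSO libraries the order per kb was LYN (649 ± 18.7), CSK (455 ± 25.7), FGR (376 ± 26.6), FYN (156 ± 7.62), SRC (125 ± 8.22), BLK (113 ± 9.78), LCK (41.2 ± 3.56) and YES1 (33.9 ± 2.56), each SD with n = 4. SRC had moved from last to the fifth place, and its level did not separate from that of BLK beyond the spread. All 8 genes passed the filter of a mean of at least 10, and reads per library ran from 47 for SRC to 4947 for LYN.

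**Figure D1:**
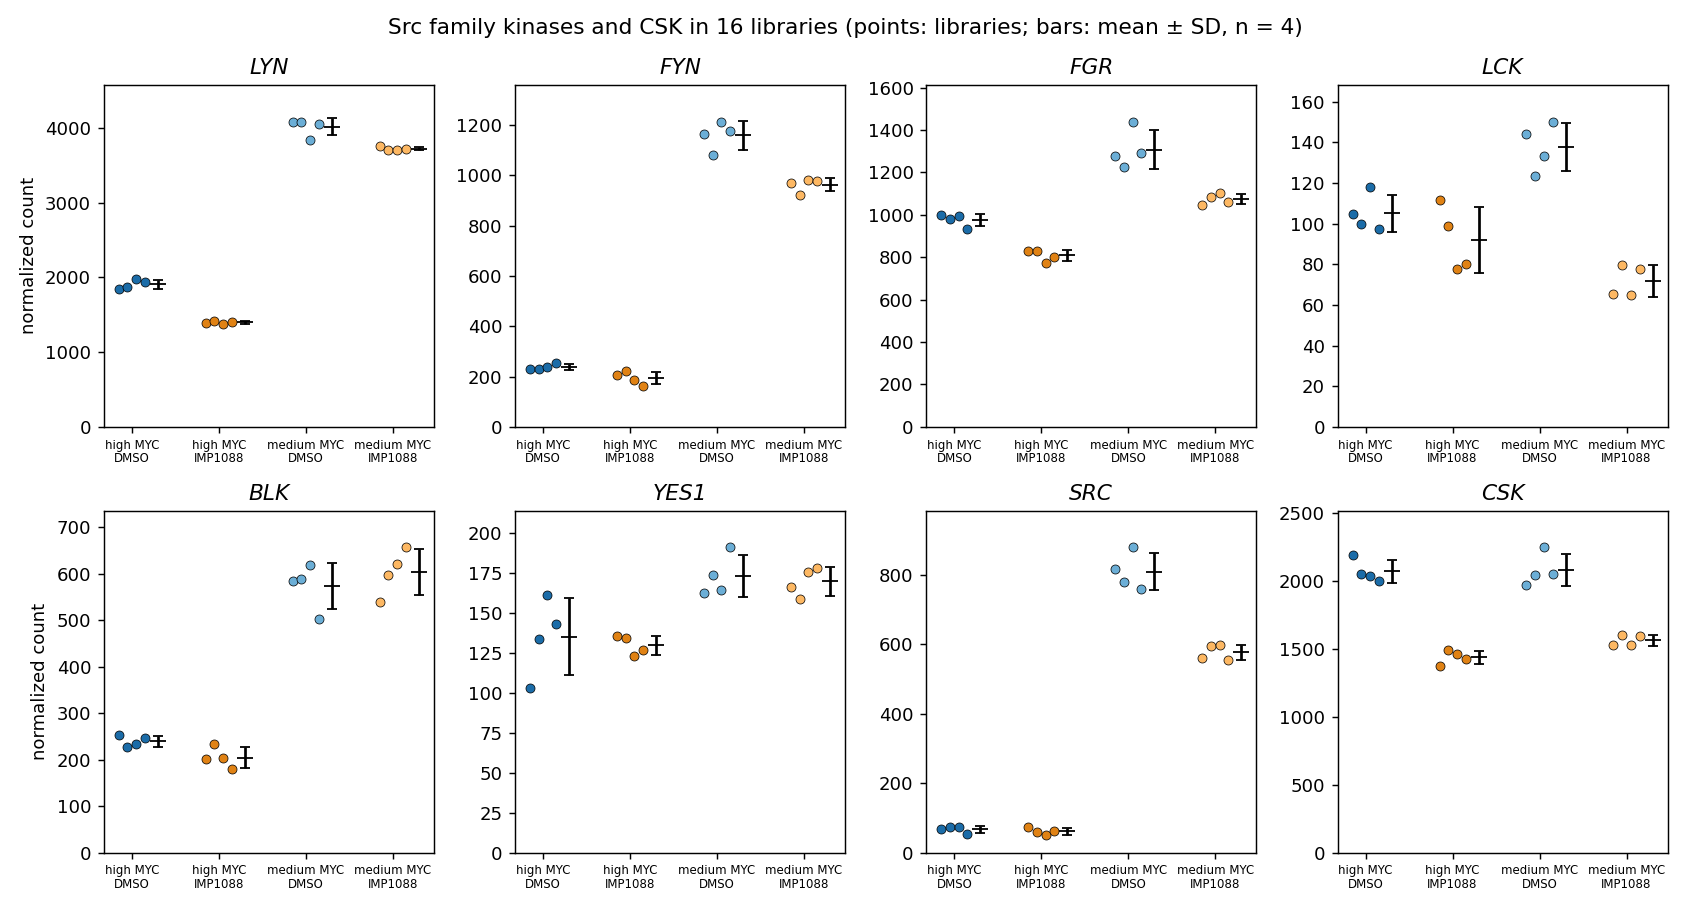
Normalized counts (y axis, from 0) of the 8 genes in the 4 groups (x axis). Points are libraries and the bar beside them is the mean ± SD (n = 4). SRC, FYN, LYN and BLK were higher in both medium MYC groups than in both high MYC groups, CSK was lower in both IMP1088 groups, and LCK was lowest with IMP1088 at medium MYC.

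The comparison of MYC levels in DMSO shows which kinases depended on the culture state before any drug. All 7 Src family kinases rose at medium MYC and CSK was the 1 gene of the 8 that did not pass the test, with a median change of 0.75 over the 8 on the log2 scale. Over all 13765 genes tested, 38.9% were called higher, 37.3% lower and 76.2% in either direction, and the median change was 0.0174. The rises ranged from 1.29-fold for YES1 to 11.95-fold for SRC. These rises, and the result for CSK, are relative to the other genes of a library, and changes per cell are not shown. For the same 7 genes, the 4 medium and 4 high MYC DMSO libraries did not overlap, against 35.6% of all tested genes that were higher without overlap.

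SRC, the founding member of the family, moved most. It had 68.5, 75.2, 72.8 and 52.5 normalized counts in high MYC DMSO libraries and 818, 778, 879.5 and 759 in medium MYC DMSO libraries. Every medium MYC library was far above every high MYC library. The log2 change was 3.58 (SE 0.11, limma adjusted p 5.72e-18). FYN, a kinase with roles in both B and T cell receptor signalling, had 231, 229, 238 and 255 normalized counts at high MYC and 1164, 1079.6, 1213 and 1177 at medium MYC. The groups were again far apart, and FYN rose 4.84-fold (log2 change 2.28, SE 0.07, limma adjusted p 7.11e-18). SRC stood at percentile 97.8 and FYN at 95.7 of the changes of all tested genes.

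LYN and BLK, the kinases most tied to the B cell receptor, rose 2.105-fold and 2.38-fold. LYN had 1840.0, 1872, 1978 and 1939 normalized counts in high MYC DMSO libraries and 4075, 4086, 3844 and 4059.6 at medium MYC (log2 change 1.07, SE 0.03, limma adjusted p 1.2e-18). BLK had 253, 227, 234 and 246 normalized counts at high MYC and 584, 589, 618 and 502 at medium MYC (log2 change 1.25, SE 0.08, limma adjusted p 2.5e-12). Neither gene's groups overlapped. An antisense gene, AC022239.1, shares 65 bases of exon with BLK, and whether counting used strand is not given, so BLK values are uncertain to that extent.

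The rises of FGR, LCK and YES1 were small. FGR, a kinase best known from myeloid cells and from Epstein-Barr virus-infected B cells, had 998, 979, 992 and 934 normalized counts at high MYC and 1276, 1224, 1439.6 and 1292 at medium MYC in DMSO (log2 change 0.42, SE 0.04, limma adjusted p 1.39e-08). LCK, the main Src kinase of T cells, had 105, 100, 118 and 97.2 at high MYC and 144, 123, 133 and 150.2 at medium MYC (log2 change 0.39, SE 0.12, limma adjusted p 0.00627). Its groups lay close together without overlap. YES1, a broadly expressed kinase, had 103, 134, 161 and 143 at high MYC and 163, 174, 165 and 191 at medium MYC (log2 change 0.37, SE 0.10, limma adjusted p 0.003). The low value of YES1 came from replicate 1 of the high MYC DMSO group, the deepest library, and without it the log2 change was 0.25 (limma adjusted p 0.0161). YES1 shares 154 bases of exon with the antisense gene AP001020.3 and has a pseudogene, YES1P1, so its values are uncertain too.

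CSK had 2187, 2048, 2036 and 1996 normalized counts in high MYC DMSO libraries and 1970.4, 2043, 2245 and 2051 in medium MYC DMSO libraries. The groups overlapped throughout. The log2 change was 0.01, with a 95% interval from -0.08 to 0.09 (limma adjusted p 0.891). The interval leaves room for a small change in either direction.

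FRK, an epithelial relative of the Src kinases, was followed beside the 8. It had from 6 to 23 reads per library, and a change with MYC level was not detectable at this depth (log2 change 0.05, 95% interval -0.58 to 0.68, limma adjusted p 0.877). Summed markers of other cell types moved with MYC level as well, but not every marker did. Summed normalized counts of the 7 myeloid markers ran from 118.1 to 135.6 at high and from 263.4 to 290.5 at medium MYC in DMSO. ITGAM and LYZ carried most of it. ITGAM was higher at medium MYC (63.7 to 94.1 and 211.7 to 230.2), whereas LYZ overlapped (40.7 to 59.2 and 47.1 to 53.2). The sums of the 8 T cell markers ran from 90.5 to 107.7 and from 184.6 to 245.4. TRAC and CD3E carried most of it at medium MYC and were higher there, whereas CD3G overlapped (21.3 to 36.9 and 16.7 to 28.3). The sums of the 4 plasma cell markers went the other way. They ran from 8700 to 10112 at high and from 1128 to 1227 at medium MYC in DMSO. With IMP1088 they ran from 10402 to 10468 and from 1775 to 1911, with JCHAIN the most abundant in every group. PRDM1 overlapped between MYC levels, from 205.6 to 242.6 at high and from 179.4 to 216.2 at medium MYC in DMSO. It also overlapped with IMP1088, from 251.6 to 311.9 and from 236.5 to 282.1. The part of all these markers in the kinase results was not tested.

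The total of the 7 Src family mRNAs described here was 737 ± 16.6 normalized counts per kb in high MYC DMSO libraries and 1495 ± 26.6 at medium MYC (SD, n = 4). LYN kept the largest share of this total in DMSO at both levels, 41.8% ± 0.851 at high MYC and 43.5% ± 1.94 at medium MYC (SD, n = 4). FGR went from 38.1% ± 1.19 to 25.2% ± 1.35, FYN from 4.37% ± 0.229 to 10.4% ± 0.358, and SRC from 1.41% ± 0.209 to 8.36% ± 0.418 (SD, n = 4). The ratio of this total to CSK per kb was 1.63 ± 0.0820 at high MYC and 3.30 ± 0.149 at medium MYC in DMSO (SD, n = 4). These sums describe mRNA per exon length, with lengths from GENCODE release 29.

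**Figure D2:**
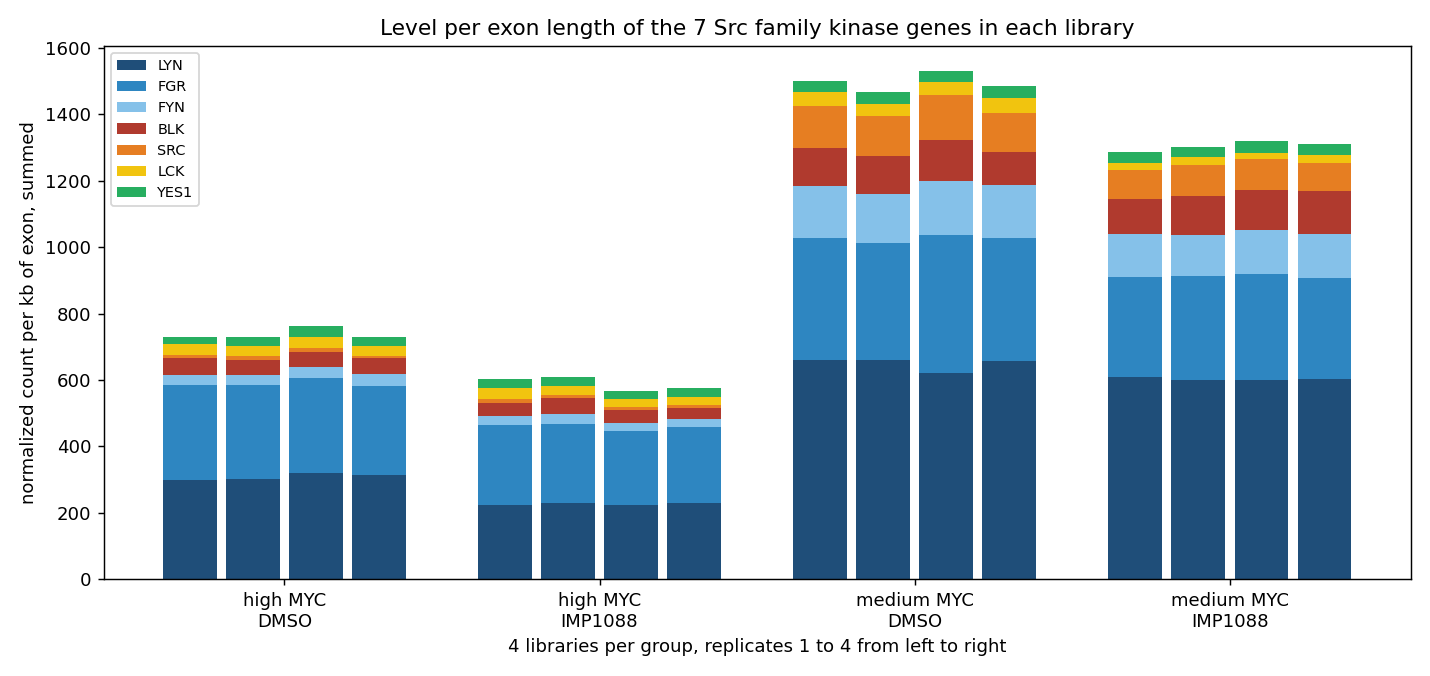
Normalized counts per kb of exon (y axis, from 0), stacked over the 7 Src family kinase genes, for each of the 16 libraries (x axis, 4 per group). The stacks reach 728 to 762 in high MYC DMSO libraries and 1466 to 1529 in medium MYC DMSO libraries, and the LYN and FGR segments fill most of each stack.

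Upstream sequences were available for some of the 8 genes, but not for SRC, BLK or LYN. RefSeq promoter entries on GRCh38.p14 existed for 5 of the 8 genes (FYN, FGR, LCK, YES1 and CSK), with 10 start sites in all. The 250 bases before each start were searched on both strands for CACGTG, the E-box bound by MYC and MAX, for TGGGAA, the core bound by RBPJ, through which EBNA2 acts on DNA, and for GAGGAA, a core of PU.1 sites in B cell and myeloid genes. None of the 10 windows held CACGTG, against 6.34% of the 35116 promoter windows in the table. TGGGAA was found in 4 of the 10, 1 window each for FGR, LCK, FYN and CSK, against 20.8% of all windows. GAGGAA was found in 2 of the 10, for FGR and CSK, against 23.6%. The 4 windows with a match are printed 5′ to 3′ on the gene's strand, with matches to any of the 3 motifs in capitals. They were picked after the matches were seen.
FGR, chr1:27635186-27635435, minus strand: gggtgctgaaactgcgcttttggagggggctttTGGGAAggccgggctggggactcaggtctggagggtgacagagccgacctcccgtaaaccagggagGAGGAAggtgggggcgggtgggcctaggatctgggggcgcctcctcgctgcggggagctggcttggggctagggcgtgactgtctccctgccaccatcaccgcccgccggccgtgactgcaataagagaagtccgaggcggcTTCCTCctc
LCK, chr1:32273871-32274120, plus strand: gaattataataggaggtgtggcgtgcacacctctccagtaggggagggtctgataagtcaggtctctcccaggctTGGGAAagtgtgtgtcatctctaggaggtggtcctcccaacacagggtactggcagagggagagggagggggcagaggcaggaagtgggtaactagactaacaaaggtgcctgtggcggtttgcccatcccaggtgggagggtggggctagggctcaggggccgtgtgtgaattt
FYN, chr6:111759082-111759331, minus strand: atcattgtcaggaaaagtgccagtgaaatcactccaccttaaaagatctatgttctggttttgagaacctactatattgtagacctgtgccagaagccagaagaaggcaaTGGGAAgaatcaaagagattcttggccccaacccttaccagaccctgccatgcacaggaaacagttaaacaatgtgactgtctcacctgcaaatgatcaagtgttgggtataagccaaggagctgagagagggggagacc
CSK, chr15:74788294-74788543, plus strand: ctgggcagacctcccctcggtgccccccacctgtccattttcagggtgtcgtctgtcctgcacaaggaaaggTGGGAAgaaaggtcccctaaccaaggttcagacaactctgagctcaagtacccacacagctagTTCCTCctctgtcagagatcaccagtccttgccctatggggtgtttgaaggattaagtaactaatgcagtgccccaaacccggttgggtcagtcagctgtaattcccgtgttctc
The TGGGAA match began 217 bases before the start in FGR, 175 in LCK, 140 in FYN and 178 in CSK. FGR and CSK hold both TGGGAA and GAGGAA here, and their log2 changes between MYC levels in DMSO were 0.42 and 0.01. Which start the cells used was not measured, and a match in these letters is a description of the sequence only.

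IMP1088 lowered most of these mRNAs by a modest amount, and none was called higher. At high MYC 5 of the 8 fell (LYN, FYN, FGR, BLK and CSK) and 3 did not pass the test (LCK, YES1 and SRC). At medium MYC 6 fell (LYN, FYN, FGR, LCK, SRC and CSK) and 2 did not pass (BLK and YES1). Over all tested genes at high MYC 26.8% were called, 16.3% as lower and 10.5% as higher. At medium MYC 26.3% were called, 14.6% as lower and 11.7% as higher. The IMP1088 libraries lay below all DMSO libraries for 4 of the 8 genes at high MYC and 6 at medium MYC, against 15.8% and 15.4% of all tested genes. These comparisons share their DMSO libraries with the comparison of MYC levels. The median log2 change over the 8 was -0.25 at high MYC and -0.27 at medium MYC, against -0.0199 and -0.00623 over all tested genes. The balance over all genes depends on scaling. At high MYC 1442 genes were called higher and 2247 lower, and with quantile normalization 1727 higher and 1770 lower. At medium MYC 1606 were called higher and 2012 lower, which turned to 1962 higher and 1659 lower with equal library totals and to 1963 and 1876 with quantile normalization. Between MYC levels quantile normalization also turned the balance, from 5355 higher and 5130 lower to 5075 and 5526 in DMSO, and from 5462 and 5202 to 5101 and 5648 with IMP1088.

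CSK fell at both levels. At high MYC it went from 2187, 2048, 2036 and 1996 normalized counts with DMSO to 1372, 1486, 1460.0 and 1424 with IMP1088, a decrease without overlap. CSK fell by 30.5% (log2 change -0.53, SE 0.04, limma adjusted p 2.3e-09). At medium MYC the IMP1088 libraries had 1528.5, 1597, 1524 and 1592, all below the 4 DMSO libraries, and CSK fell by 24.8% (log2 change -0.41, SE 0.04, limma adjusted p 6.99e-08). The difference between these responses, high minus medium MYC, was -0.11 (95% interval -0.23 to 0.0025, limma adjusted p 0.247).

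LYN fell at both levels, and the size differed. At high MYC it went from 1840.0, 1872, 1978 and 1939 normalized counts to 1388, 1422, 1375 and 1409.5 with IMP1088. The groups were well apart, and LYN fell by 26.6% (log2 change -0.45, SE 0.03, limma adjusted p 2.49e-10). At medium MYC the IMP1088 libraries had 3761, 3710.3, 3708 and 3721, below all 4 DMSO libraries by a narrow margin (log2 change -0.11, SE 0.03, limma adjusted p 0.00764). This small decrease lost its call with equal library totals (log2 change -0.080, limma adjusted p 0.0866) and with quantile normalization (-0.056, limma adjusted p 0.197), where adjusted p ranged from 0.000586 to 0.197 over the alternatives that kept all libraries. The responses differed by -0.34 (SE 0.04, limma adjusted p 8.16e-06), with the larger decrease at high MYC. A difference was called for 8.63% of all tested genes, 3.31% as higher and 5.33% as lower, and for LYN and LCK among the 8.

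LCK showed the opposite contrast. At high MYC the IMP1088 libraries had 112, 98.7, 77.7 and 80.0 normalized counts, overlapping the DMSO libraries at 97.2 to 118 (log2 change -0.20, 95% interval -0.45 to 0.05, limma adjusted p 0.242). At medium MYC they had 65.2, 79.5, 64.8 and 77.6 with IMP1088 against 144, 123, 133 and 150.2 with DMSO. The groups were far apart relative to their spread, and LCK fell by 47.6% (log2 change -0.93, SE 0.12, limma adjusted p 4.19e-06), at percentile 0.661 of all tested genes. The responses differed by 0.73 (SE 0.17, limma adjusted p 0.00754), with the larger decrease at medium MYC. Summed T cell markers ran from 184.6 to 245.4 with DMSO and from 157.3 to 192.2 with IMP1088 at medium MYC. Among them CD3E ran from 50.1 to 75.3 and from 30.3 to 39.7. TRAC overlapped, from 111.3 to 157.6 and from 108.9 to 135.8. At high MYC, where LCK was not called, the sums ran from 90.5 to 107.7 with DMSO. With IMP1088 they were lower there too, from 57.2 to 79.9. The part of these markers in the LCK result was not tested. LCK rests on 56 to 183 reads per library.

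With IMP1088 present, the order of LCK between MYC levels was turned: medium MYC was lower than high MYC (log2 change -0.345, SE 0.12, limma adjusted p 0.013). The groups overlapped slightly, and without replicate 1 of the high MYC IMP1088 group the change was -0.25 (limma adjusted p 0.0678, and 0.00493 to 0.0678 over all fits without 1 library). The other 7 genes were higher at medium MYC under IMP1088, where 77.5% of all tested genes were called, 39.7% as higher and 37.8% as lower. For these 7 the groups did not overlap, against 37.2% of all tested genes that were higher without overlap. SRC had a log2 change of 3.22, FYN of 2.30, BLK of 1.56 and LYN of 1.41. FGR had 0.41, YES1 0.38 and CSK 0.12 (limma adjusted p 0.00901 for CSK). The CSK change was small, but all 4 medium MYC libraries (1524 to 1597) lay above all 4 high MYC libraries (1372 to 1486).

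SRC fell at medium MYC, from 818, 778, 879.5 and 759 normalized counts with DMSO to 560.4, 595, 597 and 556 with IMP1088. No library overlapped, and SRC fell by 28.5% (log2 change -0.48, SE 0.11, limma adjusted p 0.00147). At high MYC it had 75.3, 58.8, 51.5 and 61.3 with IMP1088, overlapping the DMSO values (log2 change -0.12, 95% interval -0.34 to 0.10, limma adjusted p 0.439). The difference between these responses was not called (0.36, 95% interval 0.05 to 0.67, limma adjusted p 0.155), so SRC was not shown to respond differently at the 2 levels. Counts of 47 to 91 reads per library at high MYC limit that comparison.

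FYN and FGR fell by similar amounts at both levels. FYN had 208, 221, 188 and 164 normalized counts with IMP1088 at high MYC and 968, 923, 981 and 976 at medium MYC, in both cases below all DMSO libraries of that level. Its log2 changes were -0.30 (SE 0.07, limma adjusted p 0.00248) and -0.27 (limma adjusted p 0.00543). FGR had 829, 829.7, 774 and 802 with IMP1088 at high MYC and 1047, 1086, 1105 and 1059.8 at medium MYC, again below all DMSO libraries of the same level. Its log2 changes were -0.27 (SE 0.04, limma adjusted p 6.84e-05) and -0.28 (limma adjusted p 3.93e-05). The differences between levels were -0.03 (95% interval -0.23 to 0.17) for FYN and 0.01 (-0.12 to 0.14) for FGR. For LYN, FYN and FGR the 4 groups did not overlap and had the same order, from medium MYC DMSO down through medium MYC IMP1088 and high MYC DMSO to high MYC IMP1088.

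BLK and YES1 were the 2 genes without a called response at medium MYC. BLK had 201, 233, 203 and 179.8 normalized counts with IMP1088 at high MYC, slightly overlapping the DMSO values (log2 change -0.24, SE 0.08, limma adjusted p 0.028). This call was lost in edgeR (adjusted p 0.0626), in DESeq2 (adjusted p 0.0582) and without replicate 1 or 4 of the high MYC DMSO group or replicate 1, 3 or 4 of the high MYC IMP1088 group (limma adjusted p from 0.00679 to 0.109 over all fits without 1 library). At medium MYC BLK had 538, 596, 620.4 and 656 with IMP1088 (log2 change 0.07, 95% interval -0.09 to 0.23, limma adjusted p 0.542). YES1 had 136, 134, 123 and 127 with IMP1088 at high MYC and 167, 159, 175 and 178 at medium MYC, overlapping the DMSO values at each level. Its log2 changes were -0.04 (95% interval -0.26 to 0.18) and -0.03 (-0.24 to 0.19), with limma adjusted p of 0.818 and 0.894.

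**Figure D3:**
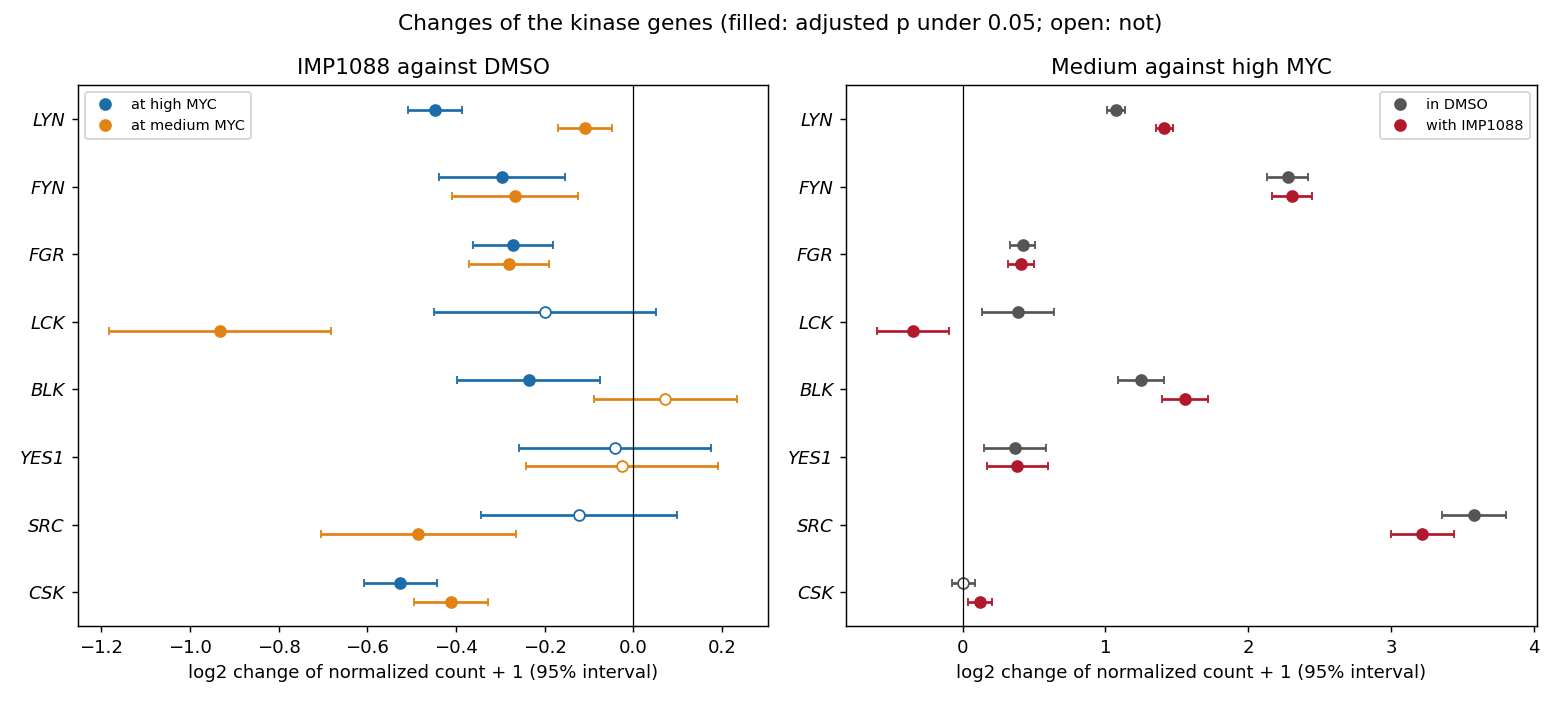
Log2 change of the normalized count plus 1 with its 95% interval (x axis) for the 8 genes (y axis). The left panel shows IMP1088 against DMSO at each MYC level, the right panel medium against high MYC in DMSO and with IMP1088. Filled points passed an adjusted p of 0.05. LCK at medium MYC (-0.93) and CSK at high MYC (-0.53) are the lowest of the IMP1088 responses among the 8, and SRC (3.58) the highest of the MYC level changes.

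The per kb total of the 7 Src family mRNAs with IMP1088 was 588 ± 21.0 at high MYC and 1304 ± 14.5 at medium MYC (SD, n = 4). The totals of all 4 IMP1088 libraries lay below those of the DMSO libraries at each level. CSK fell as well, and the ratio of the total to CSK was 1.87 ± 0.0981 with IMP1088 at high MYC and 3.82 ± 0.101 at medium MYC (SD, n = 4). The ratio with DMSO reached 1.71 at high and 3.48 at medium MYC, under the lowest IMP1088 libraries at 1.77 and 3.72. The share of LCK in the total went from 2.76% ± 0.236 to 1.65% ± 0.179 with IMP1088 at medium MYC (SD, n = 4). With IMP1088 at high MYC FGR had a share of 39.6% ± 0.436 and LYN of 38.5% ± 1.17 (SD, n = 4). These shares were close and their ranges overlapped.

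Regulators of Src kinases were examined as a list of 21 genes, all of which were tested. With IMP1088 15 fell and none rose at high MYC (median log2 change -0.25), and 13 fell and 1 rose at medium MYC (median -0.17). Over all tested genes 16.3% were called lower and 10.5% higher at high MYC, and 14.6% and 11.7% at medium MYC, with medians of -0.0199 and -0.00623. PTPN6, the phosphatase SHP-1 that opposes B cell receptor signals, fell by 54.2% at high MYC (log2 change -1.13, SE 0.04) and by 40.3% at medium MYC (-0.75), and this response differed between levels (-0.38, limma adjusted p 0.000223). PTPRJ, the receptor phosphatase CD148, fell with log2 changes of -1.33 and -0.64, also with a called difference (-0.68, limma adjusted p 0.00206). SLA, an adaptor that limits receptor signalling, had log2 changes of -0.73 at high and -0.35 at medium MYC, and LIME1, a membrane adaptor that binds CSK and LYN, of -0.56 and -0.88. Both genes were called lower at both levels, and neither difference in response was called (limma adjusted p 0.125 for SLA and 0.529 for LIME1). CBLB, a ubiquitin ligase that restrains antigen receptor signalling, was the 1 that rose, by 0.14 at medium MYC (limma adjusted p 0.02), while it fell by -0.33 at high MYC. The difference in response of CBLB was called (-0.47, limma adjusted p 1.5e-05). PAG1, the membrane adaptor that recruits CSK, was chosen for mention after its values were seen and fell at both levels, with log2 changes of -0.42 and -0.18 (limma adjusted p 2.36e-06 and 0.0135).

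Between MYC levels in DMSO 11 of the 21 regulators rose and 7 fell at medium MYC (median 0.28), where 38.9% of all tested genes were called higher and 37.3% lower (median 0.0174). All but 3 of the 21 regulators were called in either direction, a share somewhat above the 76.2% of all tested genes, and this difference was not tested. CBLB (log2 change 2.81), UNC119 (2.25), a chaperone that binds the myristate of Src kinases, and DOK1 (2.84-fold), an adaptor substrate, rose most. MATK, the kinase most related to CSK, fell by -4.21 (SE 0.11, limma adjusted p 1.27e-18), whereas CSK was at 0.01. SLA and LIME1 fell by -1.31 and -0.84.

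Among 23 substrates and partners of Src kinases at the B cell receptor, 22 were tested. With IMP1088 18 fell at high MYC and 16 at medium MYC, and none rose (median log2 changes -0.33 and -0.30), against 16.3% and 14.6% of all tested genes called lower. VAV1, an exchange factor for small GTPases, fell by -0.90 and -0.51, and CD72, an inhibitory coreceptor, by -0.78 and -0.35, at high and medium MYC. LAT2, an adaptor phosphorylated below the receptor, had log2 changes of -0.63 and -0.11, and HCLS1, an actin regulator, of -0.20 and -0.48. LAT2, CD72 and DAPP1 fell more at high MYC (differences -0.52, -0.43 and -0.42), and HCLS1 and SYK more at medium MYC (0.29 and 0.19). These are limma log2 changes with adjusted p from 2.45e-11 for HCLS1 at medium MYC to 0.0465 for LAT2 at medium MYC, except for DAPP1 at medium MYC (0.05, adjusted p 0.573). Between MYC levels in DMSO all 22 passed the test, 15 higher and 7 lower at medium MYC (median 0.32), where 76.2% of all tested genes did, 38.9% as higher and 37.3% as lower. HCLS1, PIK3AP1 and CD22 rose by 1.34, 1.29 and 1.28, and DOK3, BTK and BLNK fell by -0.71, -0.37 and -0.19. CR2, the complement receptor CD21, was at least 27.1-fold higher at medium MYC in DMSO, since no high MYC library held more than 3 reads (floor of 3 reads per library).

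**Figure D4:**
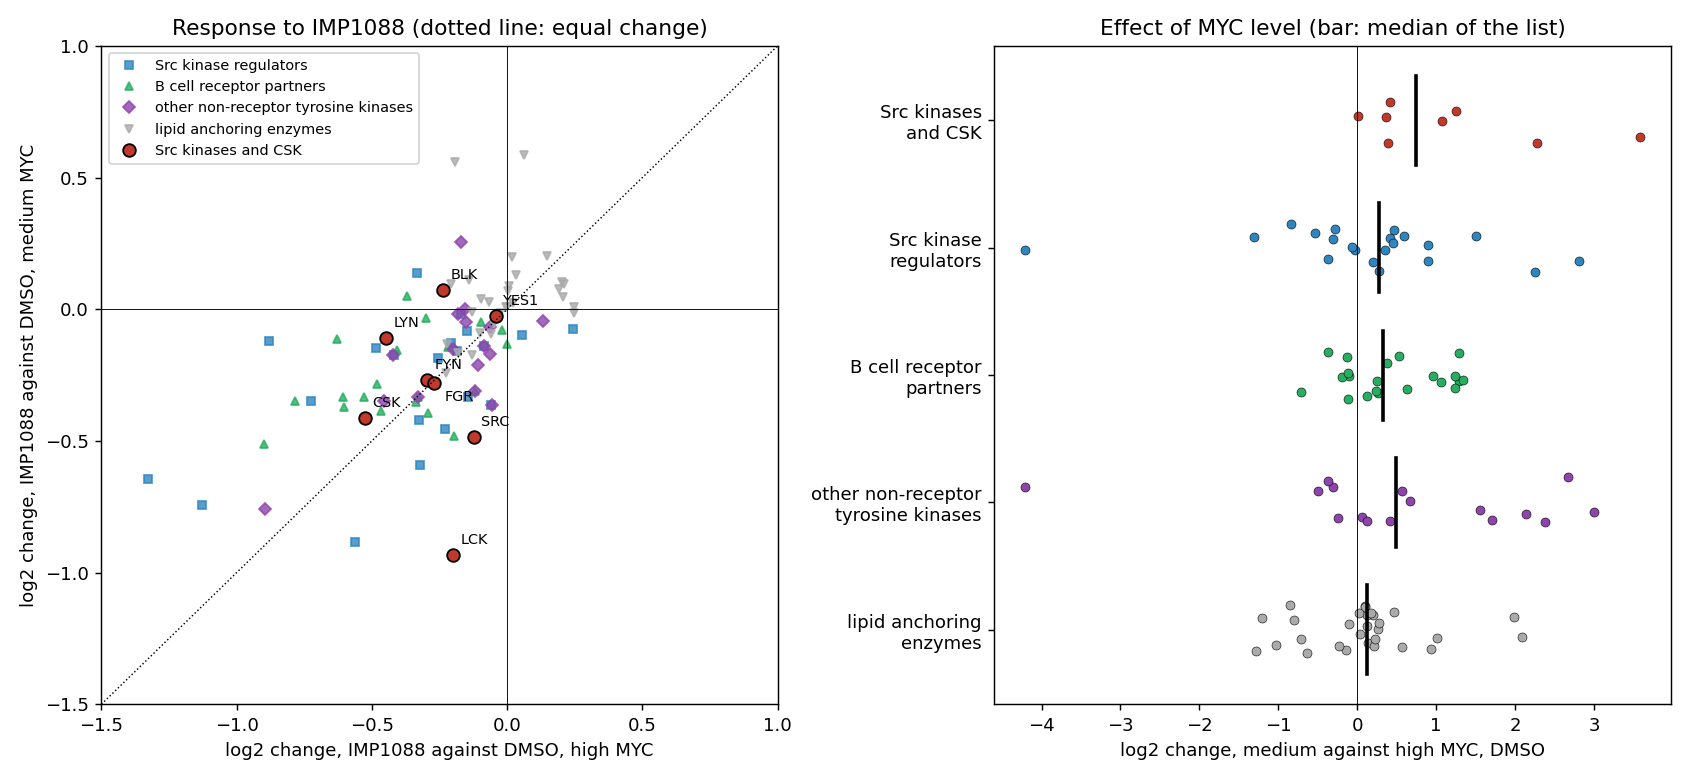
Left panel: log2 change with IMP1088 against DMSO at high MYC (x axis) and medium MYC (y axis) for the 8 genes (red circles) and 4 lists of related genes; right panel: log2 change between medium and high MYC in DMSO (x axis) by list (y axis), with the list's median as a bar. CR2, with at most 3 reads in every high MYC library, has no point but counts in its list's median. LCK (-0.20 at high, -0.93 at medium MYC) lies far below the line of equal change, and LYN (-0.45 and -0.11) above it.

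Genes with the most similar profile over the 16 libraries were listed for each kinase from 10843 candidates with a symbol and a mean of at least 50. The measure was Pearson's correlation of log2 values, in which the 4 groups and the large contrast between MYC levels are shared by all points. LYN was most like IFIT3 (r = 0.998) and TMSB4X (0.998), FYN like ARID1B (0.997) and CCND2 (0.997), and SRC like MFGE8 (0.997) and CTSH (0.996). BLK was most like MAML2 (0.995) and SIK3 (0.992), and FGR like LIMK1 (0.986) and PAQR4 (0.985). CSK was most like ITM2C (0.967) and TRIM25 (0.965). Correlations were lower for YES1, with NNT-AS1 (0.931) and TIA1 (0.926), and for LCK, with FUT11 (0.904) and FKBP15 (0.897). FUT11 had mean normalized counts of 425 and 388 at high MYC and 511 and 335 at medium MYC, without and with IMP1088, the same order as LCK. LIMK1 had 942, 683, 1454 and 1050 in the same order of groups.

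The genes lie at these positions of GENCODE release 29 on GRCh38, all protein coding: LYN (ENSG00000254087) on chromosome 8 from 55879813 to 56014168, BLK (ENSG00000136573) on chromosome 8 from 11486894 to 11564604, FYN (ENSG00000010810) on chromosome 6 from 111660332 to 111873452 and FGR (ENSG00000000938) on chromosome 1 from 27612064 to 27635277. LCK (ENSG00000182866) lies on chromosome 1 from 32251239 to 32286165, YES1 (ENSG00000176105) on chromosome 18 from 721588 to 812546, SRC (ENSG00000197122) on chromosome 20 from 37344685 to 37406050 and CSK (ENSG00000103653) on chromosome 15 from 74782057 to 74803198. Exons of LYN, FYN, FGR, LCK, SRC and CSK overlap no other gene in that release.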

How the data were processed

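RNA-seq libraries of 16 P493-6 samples were analysed, 4 in each of 4 groups. The authors deposited 1 table of 58051 Ensembl identifiers whose values are an expression signal that they call normalized counts. Per the submitters' processing notes, STAR 2.5.2a, RSEM 1.2.31, DESeq2 1.16.1 and GRCh38 were used, with no role given; annotation, strand and filters are not given in the sources used here. Dividing each library's values by its smallest step gave whole numbers (100% of values within 0.001), so whole counts were recovered; they may be rounded RSEM estimates. Symbols matched 56948 identifiers.

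The test was limma 3.58.1 (R 4.3.3) on log2(value + 1) with a mean trend, over 13765 genes with a mean of at least 10, all 16 libraries and 4 group means, with Benjamini-Hochberg adjustment over all tested genes, called under 0.05, two-sided. Log2 changes are on this scale, which understates changes of low genes. Alternatives used edgeR 4.0.16 and DESeq2 1.42.0 on recovered counts, other scalings, pseudocounts, filters and fits without 1 library; a GC correction was added after the data were seen. The members and lists were chosen with earlier results of these data known. Named genes were the 8 members, FRK, MYC, NMT1, NMT2, up to 3 called genes per list, direction and comparison with a mean of at least 50, and the 2 genes most like each member in profile; not every such gene is printed, and some items are not reported here. The planned permutation test for members under the filter was not needed. The fits were tested on simulated counts. Counting intervals cover counting error only. Replicate numbers were not used as pairs in the main test. Correlations of same-numbered deviations averaged from -0.0716 to 0.0242 over the 4 comparisons of groups. Single correlations ran from -0.154 to 0.239, and such values cannot show that the libraries were unpaired.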

Additional observations from a re-analysis of the deposited data

Results flagged for a closer look

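Of the 8 genes, 2 responded to IMP1088 by different amounts at the MYC levels, by a test of the difference itself. LYN had a difference of -0.34 on the log2 scale, high minus medium MYC, and LCK one of 0.73 (limma adjusted p 8.16e-06 and 0.00754).

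In medium MYC DMSO libraries, replicate 3 had the lowest LYN value, 3844 normalized counts, while the others lay between 4059.6 and 4086, a gap large for 4 libraries. It was the 1 such value among 32 sets of 4 libraries examined (the 8 genes in 4 groups), and chance gives about 1 in 20. Without that library the LYN change with IMP1088 at medium MYC was -0.13 (limma adjusted p 0.00176) and the difference in response -0.32.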

How the results depend on the processing

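Of 40 changes (8 genes in 5 comparisons), recomputed in 1152 combinations with an alternative, 1136 kept their direction or stayed uncalled, 14 lost their call and 2 gained one. No called change turned sign; 25 uncalled ones did. LYN with IMP1088 at medium MYC lost its call with equal library totals (log2 change -0.080) and quantile normalization (-0.056). BLK with IMP1088 at high MYC lost it with quantile normalization (-0.20, limma adjusted p 0.0739), no mean trend (-0.24, 0.055), edgeR (-0.23), DESeq2 (-0.23), only the 2 groups compared (-0.24, 0.0604) and the GC correction (-0.16, 0.0981), and leaving out 1 library gave -0.30 to -0.18. Leaving out 1 library gave -0.42 to -0.25 for LCK between MYC levels with IMP1088, and -0.37 to -0.25 for the difference in response of BLK, which was then called without replicate 2 of the high MYC IMP1088 group or replicate 1 of the medium MYC IMP1088 group (limma adjusted p 0.0311 and 0.0455). The causes were not tested.

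With the replicate number as a block, no call of the 8 genes changed, and 3468, 3425, 10419, 10601 and 1052 genes were called, against 3689 and 3618 for IMP1088 at high and medium MYC, 10485 and 10664 for MYC level in DMSO and with IMP1088, and 1188 for the difference in response. All counts of called genes stayed within 1.5 times of these under every alternative run. The largest shift of the all-gene median by a scaling was to -0.0507, for MYC level with IMP1088 under quantile normalization. Low counts of SRC at high MYC, LCK and YES1 limit their precision.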

Other observations

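Other non-receptor tyrosine kinases were followed as a list of 24, of which 16 passed the filter (MATK, BTK and SYK among them also belong to the lists above). Between MYC levels in DMSO 9 rose and 5 fell at medium MYC, with a median log2 change of 0.49, against 38.9% and 37.3% of all tested genes. JAK1, which transmits cytokine signals, rose by 2.67 and PTK2B, a calcium-responsive relative of focal adhesion kinase, by 2.38, while TNK2 fell by -0.49. With IMP1088 8 fell and 1 rose at high MYC and 6 fell at medium MYC, against 16.3% lower and 10.5% higher and 14.6% lower of all tested genes. PTK2B fell by -0.42 at high and -0.17 at medium MYC and BTK by -0.33 at both levels. ABL2 rose by 0.13 at high MYC and had -0.05 at medium MYC, a difference that was not called (limma adjusted p 0.0721).

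Enzymes that attach or remove lipid anchors (33 listed, 29 tested) were followed too. With IMP1088 4 fell and none rose at high MYC, and 3 fell and 1 rose at medium MYC, with medians of -0.004 and 0.028. Of all tested genes 26.8% and 26.3% were called at these levels. ABHD17A, a depalmitoylating enzyme, fell by -0.23 and -0.24, and ZDHHC14, a palmitoyltransferase, rose by 0.59 at medium MYC (limma adjusted p 0.00216) and had 0.06 at high MYC, a difference that was not called (limma adjusted p 0.097). Between MYC levels in DMSO 12 of the 29 rose and 7 fell, where 76.2% of all tested genes were called. ZDHHC14 (1.99) and ZDHHC13 (1.01) rose, and METAP1, which removes the initiator methionine ahead of myristoylation, fell by -1.03, as did PPT1 (-1.21) and ZDHHC9 (-1.28).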
